A study of Micropterus salmoides with 68 samples.

Results

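The spleens of 11 largemouth bass labelled abnormal were compared with the spleens of 4 fish taken before transport. The 11 are every spleen library that the labels call abnormal at 3, 4 or 5 days of recovery (3, 4 and 4 fish), out of 34 spleen libraries in 9 groups and 68 libraries of liver and spleen in all. The fish before transport were sampled straight from the net, having been fed in the pond. All other fish had been driven for 4 h, 125 to a box of 30 L aerated water. Those of the recovery days, but not those taken at the end of transport, were then kept unfed in 600 L tanks in a room at 28 °C. The labels do not say which signs made a fish abnormal or normal, and no fish was held for the same time without transport. Transport, fasting, the tank and the days that passed therefore cannot be told apart in the difference from before transport. The labels speak of tissues collected individually, and each library is called a fish here. Normal fish of the same 3 days (11 spleens, under the same transport and fasting) are used where a value is said to differ between abnormal and normal fish.

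The spleen of a bony fish filters blood, stores and removes red blood cells, and makes some of them. Its stroma of reticular fibroblasts, smooth muscle and sinus endothelium holds macrophages, thrombocytes (the nucleated platelets of fish) and lymphocytes. Fish red cells keep a nucleus and go on making RNA, so red-cell transcripts are part of any whole-spleen profile. Cortisol, the stress steroid of fish, acts through the glucocorticoid receptor and induces genes such as fkbp5, tsc22d3 and ddit4.

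Abundances are TPM, transcript abundances that correct for transcript length and are shares of each library's total, and differences are on the log2(TPM + 1) scale, abnormal minus before, as the mean of the 3 days weighted equally. A gene is said to have risen or fallen when the adjusted p of limma's moderated test was under 0.05. Libraries held 13320 to 16846 genes at 1 TPM or more. The day 4 abnormal fish 1 had the fewest genes (13320), and the day 5 abnormal fish 1 had 14960. The spleen-defining transcription factor gene tlx1 was present at 337, 263, 291 and 316 TPM before transport and at 31.2 to 151 TPM with a median of 110.4 in abnormal fish. On the first principal component of the 34 libraries (32.9% of variance) the abnormal spleens lay at 20.2 to 145, those before transport at -9.32 to 14.5, and the normal spleens at -77.8 to -60.1. In bulk tissue, fewer cells of a type and less RNA per cell cannot be told apart.

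Abnormal spleens had more RNA of most red blood cell genes listed and less of most stromal and immediate early genes listed and of many glucocorticoid-responsive ones. Of 17998 genes tested, 5154 (28.6%) passed: 613 (3.41%) rose and 4541 (25.2%) fell. The libraries of the 2 groups did not overlap for 2.29% of genes in the upward direction and 14.4% in the downward direction. The median difference of all genes was -0.35. After median-of-ratios rescaling, which brings that median to 0.00, 2622 genes (14.6%) rose and 3394 (18.9%) fell. Every one of the 613 rises was also called a rise after rescaling, and 3388 of the 4541 falls were also called falls. Because rescaling moves the median gene upward, it favours keeping the rises and is little test of them. Without the 10 most abundant spleen genes, 1901 genes (10.6%) rose and 2503 (13.9%) fell. Counts by list below are given as deposited and after rescaling.

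Without the 2 abnormal fish of fewest genes, 598 genes (3.32%) rose and 3431 (19.1%) fell. The count rested most on the fish before transport, since 3289 genes in all passed without fish 4 of that group.

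**Figure D1:**
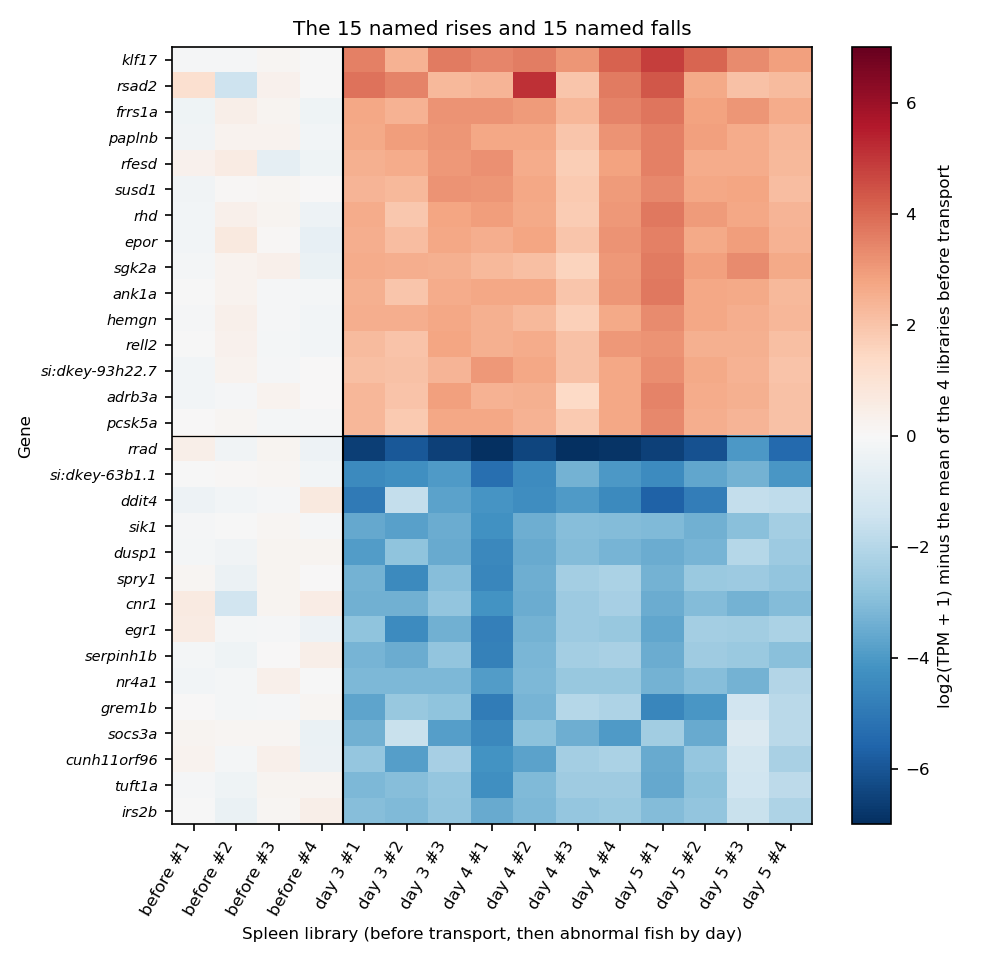
Heat map of the 15 largest rises and 15 largest falls that met the naming rule, 1 row per gene and 1 column per library, coloured by log2(TPM + 1) minus the mean of the 4 libraries before transport (red higher, blue lower). In the 11 abnormal columns the rows of klf17 to pcsk5a are red and those of rrad to irs2b are blue, and rrad has the darkest blue.

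The most abundant transcripts of the abnormal spleens came from 4 loci, chosen here because they were the most abundant. One is hbae5, an alpha globin gene. The other 3 carry locus numbers only, LOC119915756 beside hbae5 and the neighbours LOC119891502 and LOC119891526 near nprl3. Together they took 8.09% to 17.2% of summed TPM before transport, 14.1% to 58.1% in abnormal fish and 0.604% to 6.76% in normal fish. The highest share was that of day 4 abnormal fish 1 and the next that of day 5 abnormal fish 1, the 2 abnormal libraries with fewest genes.

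**Figure D2:**
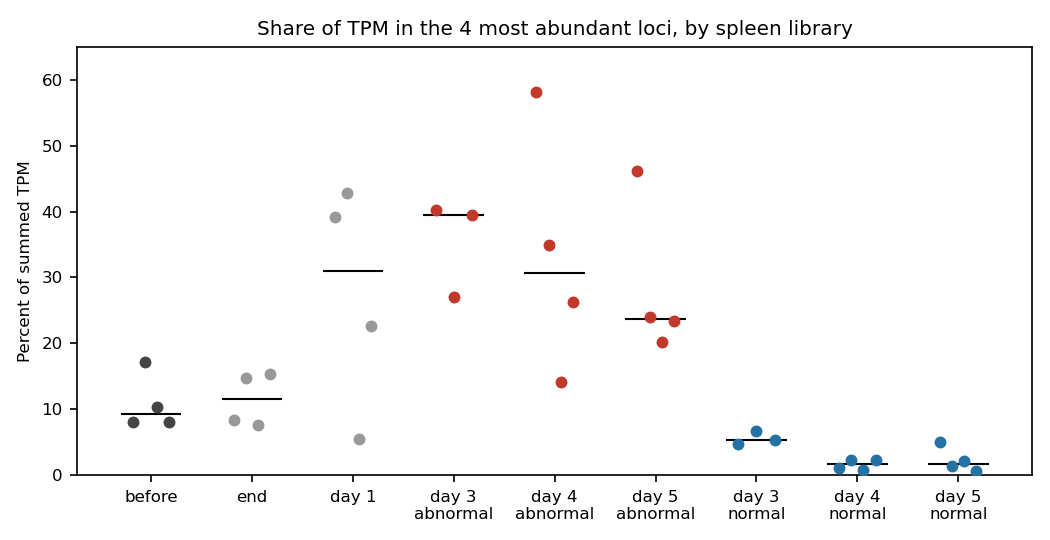
Percent of summed TPM in the 4 most abundant loci in each of the 34 spleen libraries (points), by group, with the group median as a bar. The abnormal fish run from 14.1% to 58.1% and overlap the range before transport (8.09% to 17.2%) only through 1 day 4 fish, while the normal fish stay at or below 6.76%.

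The 4 loci did not move alike. LOC119891502 stood at 14543, 31541, 20764 and 15426 TPM before transport and at 53805 to 218496 TPM with a median of 120895 in abnormal fish. The groups did not overlap and the difference was 2.5 ± 0.47 (SE; limma adjusted p = 0.0003), although quantile normalization took this call away (adjusted p = 0.095). Its neighbour LOC119891526 differed by 2.27 ± 0.49 (SE; limma adjusted p = 0.00099). Values of hbae5 were 35337, 71664, 41595 and 31026 TPM before transport and 26841 to 134804 TPM with a median of 66477 in abnormal fish, so the groups overlapped, and its difference of 0.66 ± 0.57 (SE; limma adjusted p = 0.4) did not pass. LOC119915756 likewise differed by 0.44 (adjusted p = 0.6). The ratio of LOC119891502 to hbae5 was 0.412 to 0.499 before transport and 1.07 to 4.50 in abnormal fish, without overlap (difference of mean log2 ratio 1.82, 2-sided exact permutation p = 0.0015, n = 11 and 4, the smallest p this design can give). This ratio was 0.159 to 0.210 at the end of transport, 0.610 to 0.724 after 1 day and 2.29 to 10.3 in normal fish. A ratio within a library does not depend on how TPM is scaled. Both loci were picked for their abundance in these same abnormal fish, with earlier results known. The permutation p is therefore not independent support for a difference.

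Genes of red blood cells rose as a group. Of 13 listed and tested, 10 rose and none fell (median 1.62 against -0.35 for all genes), and 11 rose after rescaling. Without the 2 abnormal fish of fewest genes, 9 rose. The erythropoietin receptor gene epor, through which the hormone drives red-cell production, stood at 12.9, 24.4, 15.6 and 9.88 TPM before transport and at 59.4 to 183 TPM with a median of 99.4 in abnormal fish. Each abnormal library was above all 4 before transport, with a difference of 2.65 ± 0.36 (SE; limma adjusted p = 5.9e-06). For gata1a, a transcription factor gene of the red-cell lineage, the values were 14.3, 19.0, 17.2 and 14.7 TPM before transport and 56.9 to 139 TPM with a median of 86.9 in abnormal fish. Here too the groups stood apart, by 2.26 ± 0.29 (SE; limma adjusted p = 2.6e-06). The red-cell membrane skeleton gene ank1a differed by 2.59 (adjusted p = 0.0001), its partner sptb, a spectrin gene chosen after its values were seen, by 2.26 (adjusted p = 0.00066), the Rh blood group gene rhd by 2.65 (adjusted p = 9.3e-07) and hemgn, a nuclear protein gene of blood-forming cells, by 2.53 (adjusted p = 3.1e-06). The kinase gene jak2a, whose product signals below the erythropoietin receptor, rose by 1.00 (adjusted p = 0.015), a call lost without fish 1 of the group before transport (adjusted p = 0.054). Summed TPM of the list overlapped between the groups, 31864 to 73349 TPM before transport and 28761 to 138800 TPM in abnormal fish, most of that sum being hbae5.

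The largest rise that met the naming rule was that of klf17, a Krüppel-like transcription factor gene linked to red-cell formation in zebrafish. It stood at 4.86, 4.81, 5.88 and 5.15 TPM before transport and at 32.2 to 178 TPM with a median of 71.3 in abnormal fish. The lowest abnormal value was several times the highest before transport, and the difference was 3.51 ± 0.37 (SE; limma adjusted p = 1.2e-07). The naming rule asked for groups without overlap, so lack of overlap in the 15 named rises and 15 named falls was set by that choice. Next came rsad2, the gene of the antiviral protein viperin, at 23.8, 3.18, 12.9 and 10.2 TPM before transport and 42.1 to 395 TPM with a median of 69.9 in abnormal fish (3.09, adjusted p = 0.00067). As deposited, no other member of the interferon list was called a rise. Of 20 tested, rsad2 alone rose (5%, all genes 3.41%) and 2 fell (10%, all genes 25.2%), with a median of -0.33. After rescaling 3 rose (15%, all genes 14.6%) and none fell (all genes 18.9%). The shares that rose were thus near those of all genes. Also among the 15 were the ferric reductase gene frrs1a (2.94), the beta-adrenergic receptor gene adrb3a (2.44), the kinase gene sgk2a (2.64) and the proprotein convertase gene pcsk5a (2.42). The remaining named rises were paplnb (2.78), rfesd (2.67), susd1 (2.66), rell2 (2.48) and si:dkey-93h22.7 (2.47). All 15 named rises were called after rescaling as well, which favours rises because it moves the median gene upward.

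Haem and iron genes rose in part. In haem synthesis 3 of 11 genes rose and none fell (median 0.33), and 5 rose after rescaling. The red-cell form of the first enzyme of the pathway, alas2, measured 180.3, 287, 163 and 196 TPM before transport and 291 to 1020.0 TPM with a median of 577 in abnormal fish. The ranges lay close without overlapping, and alas2 differed by 1.41 ± 0.42 (SE; limma adjusted p = 0.012). The mitochondrial iron importer slc25a37 rose by 1.81 (adjusted p = 0.00022) and the haem pathway enzyme uros by 1.29 (adjusted p = 5.4e-05). Of 13 genes of iron and haem handling 3 rose and 1 fell, and 4 rose and none fell after rescaling. Without the 2 abnormal fish of fewest genes these counts were 1 and 0. The transferrin receptor gene tfr1a, which brings iron into red-cell precursors, rose by 1.05 (adjusted p = 0.0039). The iron exporter ferroportin, slc40a1, was the 1 that fell (-1.03, adjusted p = 0.042), a call lost after rescaling (adjusted p = 0.058) and when any of 9 single libraries was left out (fish 1, 2 and 4 before transport, fish 1 and 2 of day 3, fish 1 and 2 of day 4 and fish 1 and 3 of day 5, with adjusted p of 0.053 to 0.13). For hmox1a, the haem-degrading oxygenase, values were 349.7, 1847, 205 and 223 TPM before transport and 216 to 1152 TPM with a median of 589 in abnormal fish. Fish 2 before transport was higher than every abnormal fish, and the difference of 0.50 (adjusted p = 0.44) did not pass.

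Among 36 antioxidant genes 4 (11.1%, all genes 3.41%) rose and 3 (8.33%, all genes 25.2%) fell (median 0.14). After rescaling 12 (33.3%, all genes 14.6%) rose and 1 (2.78%, all genes 18.9%) fell. In normal fish 14 rose and 2 fell from before transport (median 0.42, 21.5% and 10.6% of all genes). Set against normal fish, 6 were higher and 19 lower in abnormal fish (7.75% and 54.2% of all genes). After rescaling these were 13 and 11 (27.7% and 28.4%). Rises in this list were thus not particular to abnormal fish. Catalase, cat, which removes hydrogen peroxide, stood at 51.3, 58.3, 51.4 and 50.6 TPM before transport and 137 to 363 TPM with a median of 213 in abnormal fish. Its groups did not overlap and it differed by 1.94 ± 0.27 (SE; limma adjusted p = 7.4e-06). The glutathione peroxidase gene gpx4a, whose product protects membrane lipids, rose by 1.41 (adjusted p = 0.00053).

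Thrombocyte genes split. Of 10 tested 3 rose and 1 fell (median 0.27), and 5 rose and 1 fell after rescaling. The platelet surface gene gp9 stood at 20.6, 35.5, 28.3 and 19.9 TPM before transport and at 52.99 to 178 TPM with a median of 99.7 in abnormal fish, and differed by 1.82 ± 0.26 (SE; limma adjusted p = 8.6e-06) without overlap. nfe2, a transcription factor gene of the lineage, rose by 1.60 (adjusted p = 0.00021). By contrast thbs1b, the gene of a matrix protein that platelets also store, fell by 1.85 (adjusted p = 0.00017) on the log2 scale. The thrombopoietin receptor gene mpl overlapped between the groups, at 234, 353, 337 and 259 TPM before transport and 149.7 to 609 TPM with a median of 397 in abnormal fish (0.28, adjusted p = 0.59). Of 9 B cell genes 2 rose and 1 (cd81a, a surface protein gene, -1.19, adjusted p = 0.0023) fell, and their median changed sign with the scale, -0.03 as deposited and 0.40 after rescaling. The B cell receptor gene cd79a stood at 81.3, 74.1, 79.0 and 88.5 TPM before transport and 105 to 298 TPM with a median of 143 in abnormal fish (0.89, adjusted p = 0.043), and the B cell factor gene pax5 differed by 0.81 (adjusted p = 0.041). Both calls were lost when any 1 of the 4 fish before transport was left out, with adjusted p of 0.081 to 0.098 for cd79a and 0.055 to 0.12 for pax5. Each was also lost without any of 7 abnormal fish, with adjusted p of 0.0503 to 0.067 for cd79a and 0.051 to 0.081 for pax5.

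**Figure D3:**
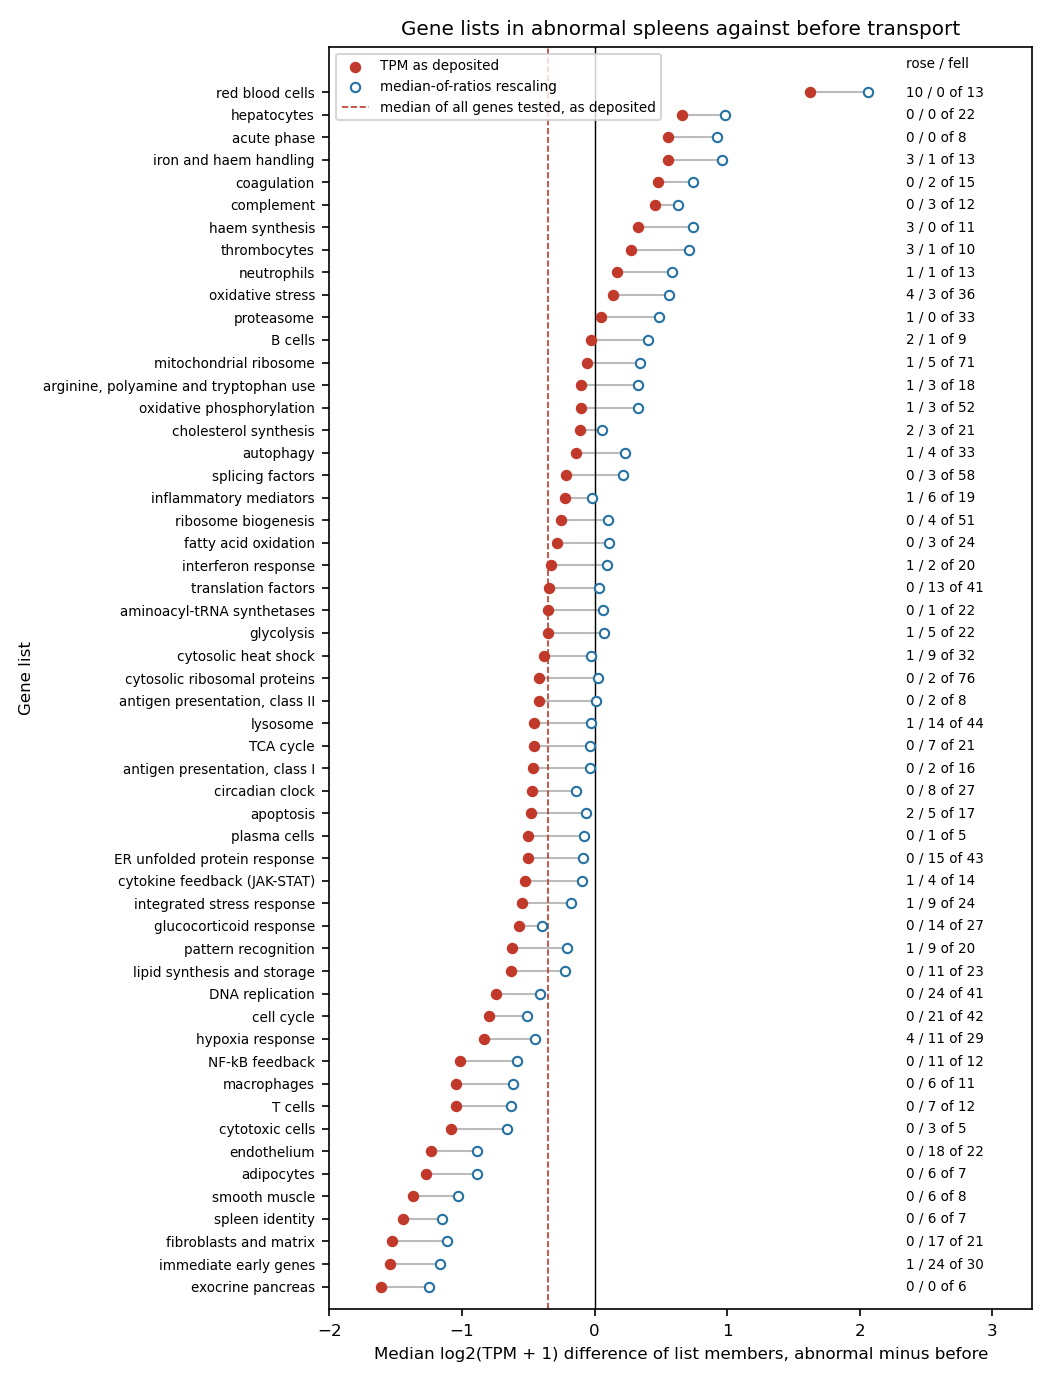
Median log2(TPM + 1) difference, abnormal minus before, of the tested members of 54 gene lists, from TPM as deposited (filled red) and after median-of-ratios rescaling (open blue), with the number that rose and fell as deposited at right. Red blood cells stand at the top (1.62), and fibroblasts and matrix (-1.53), immediate early genes (-1.54) and exocrine pancreas (-1.61, with no gene called) at the bottom.

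The largest fall was that of rrad, the gene of a Ras-related GTPase that is induced early in many stimulated tissues. It stood at 602, 386, 526 and 354 TPM before transport and at 1.18 to 27.14 TPM with a median of 3.95 in abnormal fish. No abnormal fish came near the range before transport, and the difference was -6.30 ± 0.52 (SE; limma adjusted p = 3.6e-09). Immediate early genes, which respond to stimuli within minutes, fell broadly. Of 30 tested, 24 fell and 1 rose (median -1.54), and after rescaling 22 fell and 1 rose. The falls were not particular to abnormal fish. After 1 day 19 of the 30 had fallen from before transport and none had risen (median -1.47, 15.9% of all genes fell). At the end of transport 12 had fallen and none had risen (median -0.67). In normal fish 11 fell and 4 rose (median -0.25, 10.6% of all genes fell and 21.5% rose). egr1 read 151, 93.2, 94.8 and 80.4 TPM before transport and 2.75 to 21.2 TPM with a median of 13.6 in abnormal fish. The orphan nuclear receptor gene nr4a1 read 20.4, 21.1, 29.8 and 22.3 TPM and 0.58 to 4.87 TPM with a median of 1.76. Both stood apart without overlap, with differences of -3.17 (adjusted p = 2.1e-05) and -3.05 (adjusted p = 3e-08). The AP-1 subunit gene jund fell by 2.67 (adjusted p = 3e-08). The AP-1 genes fosb (-2.17, adjusted p = 9.3e-07) and junbb (-2.03, adjusted p = 0.0012) fell without overlap as well, and the 1 that rose was zfp36l1b, the gene of an RNA-binding protein (0.76, adjusted p = 0.015), a call lost without fish 2 before transport (adjusted p = 0.061). These 3 were chosen after their values were seen.

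Glucocorticoid-responsive genes were lower in abnormal fish. Of 27 tested 14 fell and none rose (median -0.57), and 13 fell after rescaling. Chaperone gene fkbp5, a feedback target of the receptor, stood at 275, 399, 438 and 597 TPM before transport and at 5.54 to 354 TPM with a median of 33.7 in abnormal fish. Its groups overlapped because day 5 abnormal fish 3, at 354 TPM, lay within the earlier range, and it fell by 3.14 ± 0.63 (SE; limma adjusted p = 0.00055) on the log2 scale. For tsc22d3, which encodes the leucine zipper protein GILZ, values were 569, 509, 619.7 and 654 TPM before transport and 48.6 to 305 TPM with a median of 108 in abnormal fish. Those groups did not overlap, with a difference of -2.26 ± 0.26 (SE; limma adjusted p = 7.5e-07). cebpd, a transcription factor gene induced by cortisol, differed by -2.72 (adjusted p = 4.7e-07). The phosphatase gene dusp1, which switches off MAP kinases, read 80.8, 76.0, 103 and 105 TPM before transport and 2.96 to 22.2 TPM with a median of 8.6 in abnormal fish, a difference of -3.27 (adjusted p = 3.1e-06). The insulin receptor substrate gene irs2b differed by -2.78 (adjusted p = 1.3e-06). The kinase gene sgk1 (-1.40, adjusted p = 0.00067) and the transcription factor gene klf9 (-1.86, adjusted p = 5.5e-05), chosen after their values were seen, fell without overlap. The receptor's own gene, nr3c1, measured 26.2, 22.1, 23.2 and 26.5 TPM before transport and 9.35 to 24.1 TPM with a median of 17.5 in abnormal fish, and its difference of -0.51 (adjusted p = 0.16) did not pass. ddit4, whose product restrains TOR signalling, stood at 456, 512, 548 and 929 TPM before transport and 10.6 to 187 TPM with a median of 32.0 in abnormal fish. That is a fall without overlap, by 3.72 ± 0.59 (SE; limma adjusted p = 4e-05) on the log2 scale.

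Feedback inhibitors of NF-kB signalling fell together. In the NF-kB feedback list 11 of 12 genes fell and none rose (median -1.01), with 8 after rescaling and 9 without the 2 abnormal fish of fewest genes. nfkbiaa, the gene of the NF-kB inhibitor IkBa, measured 428, 313, 476 and 534 TPM before transport and 31.1 to 187 TPM with a median of 92.2 in abnormal fish, and differed by -2.30 ± 0.30 (SE; limma adjusted p = 3.1e-06) without overlap. Of 14 genes of the JAK-STAT list 4 (28.6%, all genes 25.2%) fell and 1 (jak2a) rose. After rescaling 3 (21.4%, all genes 18.9%) fell and 1 rose. In this list stat4, a signal transducer gene, differed by -1.44 (adjusted p = 0.0023). The cytokine signalling suppressor gene socs3a differed by -2.95 (adjusted p = 3.4e-05) and the repressor gene bcl6b by -2.72 (adjusted p = 4e-08). Other named falls were the kinase gene sik1 (-3.33), the growth factor signalling inhibitor spry1 (-3.18), the cannabinoid receptor gene cnr1 (-3.17), the BMP antagonist grem1b (-3.03), the collagen chaperone serpinh1b (-3.05), tuft1a (-2.83), si:dkey-63b1.1 (-4.11) and cunh11orf96 (-2.85). All 15 named falls were called after rescaling too.

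Inflammatory mediators did not move one way. Of 19 tested 6 (31.6%, all genes 25.2%) fell and 1 rose (median -0.22). After rescaling 4 (21.05%, all genes 18.9%) fell and 1 rose. In both, the share that fell was a little above that of all genes. The 1 that rose was mmp9, a neutrophil gelatinase, at 5.09, 6.11, 6.58 and 12.5 TPM before transport and 5.79 to 356 TPM with a median of 35.5 in abnormal fish. Its abnormal values spread widely and overlapped those before transport (2.39 ± 0.71, SE, limma adjusted p = 0.012). The macrophage growth factor gene csf1b fell by 1.81 (adjusted p = 0.00066) and the prostaglandin synthase gene ptges by 2.07 (adjusted p = 0.0015). il1b was low in every one of these libraries, at 2.65, 3.06, 1.42 and 1.84 TPM before transport and 0.32 to 2.02 TPM with a median of 1.19 in abnormal fish (-0.52, adjusted p = 0.084). The acute phase gene saa ranged from 0 to 569 TPM with a median of 13.9 in abnormal fish, and its difference of 2.26 (adjusted p = 0.17) did not pass. Neutrophil genes as a list had 1 rise (mmp9) and 1 fall (srgn, a granule proteoglycan gene, -0.82, adjusted p = 0.013, lost without fish 1 before transport with an adjusted p of 0.056) among 13 (median 0.17), against 5 rises and no fall after rescaling.

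Stromal genes fell almost as a block. Of 21 fibroblast and matrix genes 17 fell and none rose (median -1.53), with the same count of 17 after rescaling and without the 2 abnormal fish of fewest genes. In normal fish of the same days 11 of the 21 also fell from before transport and 5 rose (median -1.19). Of all genes 10.6% fell and 21.5% rose in normal fish. Matrix protein gene sparc stood at 606, 366, 490.1 and 618 TPM before transport and 28.9 to 181 TPM with a median of 92.7 in abnormal fish. It differed by -2.55 ± 0.37 (SE; limma adjusted p = 1.2e-05) and its groups did not overlap. The chains of the main fibrous collagen, chosen after their values were seen, were lower in every abnormal fish. col1a1a stood at 274, 168, 251 and 241 TPM before transport and 20.02 to 115 TPM with a median of 54.2 in abnormal fish (-2.08, adjusted p = 0.00063), and col1a2 differed by -2.07 (adjusted p = 0.0006). Of 7 genes that define the spleen 6 fell (median -1.44), as deposited and after rescaling. In normal fish 3 of the 7 fell from before transport and 1 rose (median -0.46). tcf21, a factor gene needed to form the organ in mice, read 644, 464, 595 and 454 TPM before transport and 33.7 to 207 TPM with a median of 128 in abnormal fish. Its difference was -2.28 ± 0.34 (SE; limma adjusted p = 2.2e-05), and that of tlx1, given above, was -1.65 ± 0.37 (SE; limma adjusted p = 0.0014). Neither gene's groups overlapped, and wt1a (-1.86, adjusted p = 0.00042) and pbx1a (-1.44, adjusted p = 0.00025), further transcription factor genes of the list, fell without overlap too. Summed TPM of the spleen-defining list was 1003 to 1252 TPM before transport and 106 to 542 TPM in abnormal fish.

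Smooth muscle and vessel genes were lower as well. In smooth muscle 6 of 8 genes fell (median -1.37), also 6 after rescaling. In normal fish all 8 fell from before transport (median -2.37). Smooth muscle actin, acta2, measured 503, 352, 655 and 619.5 TPM before transport and 50.4 to 219 TPM with a median of 97.4 in abnormal fish, a difference of -2.28 ± 0.38 (SE; limma adjusted p = 8.1e-05) without overlap. The actin-binding gene tagln differed by -1.46 (adjusted p = 0.0012). Among 22 endothelial genes 18 fell and none rose (median -1.23), with 18 again after rescaling. In normal fish 1 of the 22 fell from before transport and 6 rose. The endothelial surface gene clec14a read 39.1, 32.3, 29.7 and 37.1 TPM before transport and 2.83 to 18.1 TPM with a median of 11.8 in abnormal fish and differed by -1.66 (adjusted p = 7.2e-05). flt4, a receptor gene of lymphatic and sinus-type vessels, differed by -1.80 (adjusted p = 0.00055) with 1 abnormal fish inside the earlier range. Of 7 fat cell genes 6 fell and 4 after rescaling, among them the regulator gene pparg (-1.27, adjusted p = 0.00094), the fatty acid carrier gene fabp4a (-1.62, adjusted p = 0.0025) and dgat2, of triglyceride synthesis (-2.43, adjusted p = 0.00046).

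Macrophage and T cell genes fell in part. Of 11 macrophage genes 6 fell and none rose (median -1.04), and 6 fell after rescaling. The macrophage factor gene mafba stood at 280.3, 359, 231 and 279.7 TPM before transport and 27.7 to 193 TPM with a median of 92.8 in abnormal fish, a difference of -1.77 ± 0.40 (SE; limma adjusted p = 0.0018) without overlap. The mannose receptor gene mrc1a read 139.8, 66.3, 79.6 and 137 TPM and 5.33 to 66.8 TPM with a median of 31.8, where the ranges just met (-1.70, adjusted p = 0.0028). Complement gene c1qb, made by macrophages, fell by 1.15 (adjusted p = 0.0088) and cfd, the gene of complement factor D, by 1.62 (adjusted p = 0.0011). Quantile normalization ended the c1qb call (adjusted p = 0.097). Of 12 T cell genes 7 fell and none rose (median -1.04), with 5 after rescaling. The T cell factor gene tcf7 read 62.1, 42.0, 61.8 and 71.4 TPM before transport and 10.03 to 42.1 TPM with a median of 28.4 in abnormal fish, and differed by -1.26 (adjusted p = 0.0036). itk, a T cell receptor kinase gene, differed by -1.16 (adjusted p = 0.0045), and the interleukin 2 receptor gene il2rb of the cytotoxic list (3 of 5 fell, 2 after rescaling) by -1.74 (adjusted p = 0.0006). In normal fish 4 of the 12 T cell genes fell from before transport and 1 rose (median -0.46, 10.6% of all genes fell). Of the 5 cytotoxic genes 3 fell there as well (median -1.57). Set against normal fish, 6 of the 12 T cell genes were lower and 1 higher in abnormal fish (54.2% and 7.75% of all genes). After rescaling 1 was lower and 4 higher (28.4% and 27.7% of all genes). The share of T cell genes that was lower as deposited was thus no larger than that of all genes. For the 5 cytotoxic genes, beside the same shares of all genes, the counts were 2 lower and 2 higher (0 and 3 after rescaling). Fewer cells and less RNA per cell remain alike here. The share taken by the 4 abundant loci had a median of 9.21% before transport and 27.0% in abnormal fish. Its part in these falls was not tested. Counts of falls in these lists without the 10 most abundant genes were 6 for macrophages and 3 for T cells.

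Genes of cell division fell in a share that depended on scale and on individual fish. Of 42 cell cycle genes 21 (50%) fell and none rose (median -0.80), against 25.2% of all genes. After rescaling 9 fell (21.4%, all genes 18.9%), without the 10 most abundant genes 5 (11.9%, all genes 13.9%) and without the 2 abnormal fish of fewest genes 8 (19.0%, all genes 19.1%), so in these alternatives the share that fell was near that of all genes. Of 41 DNA replication genes 24 (58.5%) fell, 17 (41.5%) after rescaling, 8 (19.5%) without the 10 most abundant genes and 14 (34.1%) without those fish. e2f1, which turns on S phase genes, read 9.47, 6.4, 6.29 and 12.1 TPM before transport and 1.04 to 4.36 TPM with a median of 2.8 in abnormal fish (-1.26, adjusted p = 0.004). The thymidylate synthase gene tyms differed by -1.14 (adjusted p = 0.0039). The proliferation antigen gene mki67 overlapped between the groups, at 12.5, 9.11, 6.21 and 15.3 TPM before transport and 1.11 to 13.8 TPM with a median of 5.09 in abnormal fish, and did not pass (-0.91, adjusted p = 0.14). The ubiquitin ligase gene mdm2, chosen after its values were seen, stood at 11.5, 12.8, 10.2 and 10.7 TPM before transport and 21.9 to 42.8 TPM with a median of 28.3 in abnormal fish (1.25, adjusted p = 0.0022). Those groups did not overlap. sesn2, a brake on TOR signalling, rose by 1.12 (adjusted p = 0.00012), and the cell cycle inhibitor gene cdkn1a differed by -0.21 (adjusted p = 0.5), which did not pass.

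Of 3 lists of protein folding and stress, cytosolic heat shock had a share of falls near the 25.2% of all genes. The other shares lay above it as deposited. Of 43 genes that answer misfolded protein in the endoplasmic reticulum 15 (34.9%) fell and none rose, and after rescaling 9 (20.9%, all genes 18.9%) fell and 2 rose. Without the 10 most abundant genes 6 fell (13.95%, all genes 13.9%), so that share was near that of all genes. The chaperone gene hspa5 stood at 115, 94.9, 89.3 and 92.5 TPM before transport and 12.3 to 95.4 TPM with a median of 35.5 in abnormal fish. Its groups overlapped and its difference of -1.37 (adjusted p = 0.012) stayed just under the threshold after rescaling (adjusted p = 0.047). The disulfide isomerase gene pdia6 differed by -1.32 (adjusted p = 0.0013). Among 24 integrated stress response genes 9 (37.5%) fell and 1 rose, and 7 (29.2%, all genes 18.9%) fell and 4 rose after rescaling. In that list ddit3, the gene of the factor CHOP, differed by -1.71 (adjusted p = 2.4e-05) and the phosphatase subunit gene ppp1r15b by -1.77 (adjusted p = 4e-05). Of 32 cytosolic heat shock genes 9 (28.1%) fell and 1 rose, and 9 (28.1%, all genes 18.9%) fell and 4 rose after rescaling. The co-chaperone gene dnajb1a, the 1 that rose and chosen after its values were seen, read 9.83, 9.55, 8.54 and 8.84 TPM before transport and 12.8 to 41.1 TPM with a median of 19.5 in abnormal fish (1.11, adjusted p = 0.0022). Among those that fell, hspb1 differed by -1.97 (adjusted p = 0.00056) and hsp90ab1 by -1.13 (adjusted p = 0.001).

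Ribosomal, proteasome and respiratory genes had few calls as deposited. Cytosolic ribosomal proteins had 2 falls among 76 genes, rpl3 (-0.92, adjusted p = 0.0057) being 1 of them (median -0.42), and 1 fall after rescaling. The count reached 44 when the 1 day libraries were kept out of the shared spread, a fit in which 5.52% of all genes rose and 35.5% fell. The proteasome, the complex that degrades tagged proteins, had 1 rise among 33 genes as deposited (median 0.05) and 18 rises after rescaling (median 0.49). That 1 rise was psmd3, at 58.5, 56.6, 44.6 and 61.0 TPM before transport and 63.8 to 125 TPM with a median of 81.4 in abnormal fish (0.64, adjusted p = 0.02), a call lost without fish 3 before transport (adjusted p = 0.088). Oxidative phosphorylation had 1 rise and 3 falls among 52 genes (1 rise and no fall after rescaling), with a median that changed sign from -0.10 as deposited to 0.33 after rescaling. In the lysosome 14 of 44 genes (31.8%, all genes 25.2%) fell and 1 rose. After rescaling 7 (15.9%, all genes 18.9%) fell and 3 rose. laptm4b fell by 1.71 (adjusted p = 6.4e-07) and the protease gene ctsf rose by 0.95 (adjusted p = 0.0032). Of 27 clock genes 8 (29.6%) fell and none rose, a share near that of all genes. After rescaling 6 (22.2%) fell and 3 rose. Among the falls as deposited were nfil3-6 (-1.96, adjusted p = 2.4e-06) and nr1d2a (-1.23, adjusted p = 0.00012). The labels used here give no clock time of sampling.

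Hypoxia genes moved in both directions. Of 29 tested 11 (37.9%, all genes 25.2%) fell and 4 (13.8%, all genes 3.41%) rose (median -0.83). After rescaling 8 (27.6%, all genes 18.9%) fell and 7 (24.1%, all genes 14.6%) rose. hif1al, a hypoxia-inducible factor subunit gene of fish, stood at 109.5, 138, 142 and 235 TPM before transport and 14.6 to 102 TPM with a median of 38.6 in abnormal fish, a difference of -1.89 ± 0.35 (SE; limma adjusted p = 0.00026) without overlap. bnip3la, a mitophagy receptor gene, read 56.3, 59.1, 51.7 and 59.2 TPM before transport. In abnormal fish it read 89.4 to 229.8 TPM with a median of 129.6. It rose by 1.2 ± 0.25 (SE; limma adjusted p = 0.00085), again without overlap. Of 2 more chosen after their values were seen, the vessel growth factor gene vegfab fell (-1.38, adjusted p = 0.0063) and the pyruvate dehydrogenase kinase gene pdk1 rose (0.69, adjusted p = 0.018), a call lost without fish 2 before transport (adjusted p = 0.07). egln3, an oxygen-sensing hydroxylase gene, did not pass (-0.93, adjusted p = 0.21). In glycolysis 1 gene of 22 rose and 5 fell (all genes 3.41% and 25.2%). After rescaling 3 rose and 3 fell (all genes 14.6% and 18.9%). The shares of this list were thus near or below those of all genes. The muscle-type phosphofructokinase gene pfkmb rose by 2.08 (adjusted p = 0.00022), with values of 4.89, 18.3, 2.61 and 12.0 TPM before transport and 16.8 to 66.3 TPM with a median of 34.7 in abnormal fish. gapdhs differed by -1.03 (adjusted p = 0.0052). The mitochondrial arginase gene arg2 rose by 1.31 (adjusted p = 0.00094).

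Markers of other organs were also read. None of 22 hepatocyte genes passed as deposited (median 0.66, summed TPM 342 to 719 TPM before transport and 210 to 5185 TPM in abnormal fish), with 4 higher and 1 lower at an unadjusted limma p under 0.05, while limma called 5 rises after rescaling. The liver fatty acid binding protein gene fabp10a ranged from 0.53 to 11.2 TPM with a median of 2.69 in abnormal fish. None of 6 exocrine pancreas genes passed in limma as deposited or after rescaling, and 0 did at an unadjusted p under 0.05, with summed TPM of 38 to 5388 TPM before transport and 21 to 6169 TPM in abnormal fish. The part of such tissue in the differences above was not tested. The gluconeogenesis gene pck1, high in liver, did not exceed 1.42 TPM in these fish.

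Abnormal and normal fish of the same days were set against each other directly, since both had been transported and fasted. Of 17998 genes 11140 (61.9%) differed, 1394 (7.75%) higher and 9746 (54.2%) lower in abnormal fish, and 4992 (27.7%) and 5115 (28.4%) after rescaling. All 13 red blood cell genes were higher in abnormal fish, as deposited and after rescaling. epor was at 2.14 to 30.7 TPM in normal fish, and abnormal fish were higher by 3.54 ± 0.27 (SE; limma adjusted p = 6.3e-12). rhd was higher by 3.96 (adjusted p = 4e-14), hemgn by 3.88 (adjusted p = 1.2e-13), paplnb by 3.41 (adjusted p = 8.8e-12), the red-cell carbonic anhydrase gene cahz by 4.15 (adjusted p = 4.7e-12) and the phosphatase gene phospho1 by 3.97 (adjusted p = 2.9e-14). mpl, which had not passed against the fish before transport, was higher by 3.65 (adjusted p = 3.7e-12). Measured from before transport, the red-cell list had 10 rises and no fall in abnormal fish, no rise and 6 falls in normal fish (21.5% and 10.6% of all genes), and 10 rises and no fall after 1 day (4.17% and 15.9%). These comparisons share the 4 fish before transport.

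Several of the falls also separated abnormal from normal fish. rrad ranged over 35.7 to 647 TPM in normal fish and differed by -5.0 ± 0.38 (SE; limma adjusted p = 7.6e-12). dusp1 differed by -3.89 (adjusted p = 2.1e-11), ddit4 by -4.02 (adjusted p = 6e-09), fkbp5 by -3.68 (adjusted p = 9.2e-08), the protease gene adamts1 by -4.99 (adjusted p = 5e-14), the GABA-degrading enzyme gene abat by -4.06 (adjusted p = 1.2e-13) and the AP-1 gene fosl2 by -3.96 (adjusted p = 1.3e-13). For abat the call of a fall from before transport was lost without fish 1, 3 or 4 of that group. Its limma adjusted p was then 0.059, 0.053 and 0.059 in turn. Low values of rrad were not particular to abnormal fish. It was at 7.13 to 61.1 TPM at the end of transport and 2.84 to 7.29 TPM after 1 day. ddit4 was at 530 to 1784 TPM at the end of transport and 10.2 to 60.9 TPM after 1 day. Of the 15 named falls 13 were also lower in abnormal than in normal fish. The other two, egr1 (-0.40, adjusted p = 0.33) and serpinh1b (0.24, adjusted p = 0.44), did not pass. Macrophage genes were lower in 10 of 11 cases and higher in 1, neutrophil genes lower in 13 of 13 and cell cycle genes lower in 41 of 42 (54.2% of all genes). After rescaling these counts of lower genes were 9, 11 and 39 (28.4% of all genes). Normal fish had themselves moved from before transport. There 10 of 13 neutrophil genes (median 1.99) and 27 of 42 cell cycle genes (median 0.97) rose and none fell. Of the macrophage genes 2 rose and 1 fell. Fibroblast and matrix genes were mixed, with 5 of 21 higher in abnormal fish and 11 lower (9 and 6 after rescaling). Smooth muscle went the other way, with 6 of 8 genes higher in abnormal fish and none lower (7 and 0 after rescaling). acta2 was at 13.4 to 73.3 TPM in normal fish and higher in abnormal fish by 1.86 (adjusted p = 1.7e-06). Heat shock gene hspb1 was also higher by 1.43 (adjusted p = 0.00011). The insulin-like growth factor binding protein gene igfbp1a and egln3 stood at 12.2 to 349.7 TPM and 15.1 to 448 TPM in normal fish, with differences of -4.96 (adjusted p = 2.5e-11) and -3.81 (adjusted p = 4.2e-09). Against before transport egln3 had not passed.

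**Figure D4:**
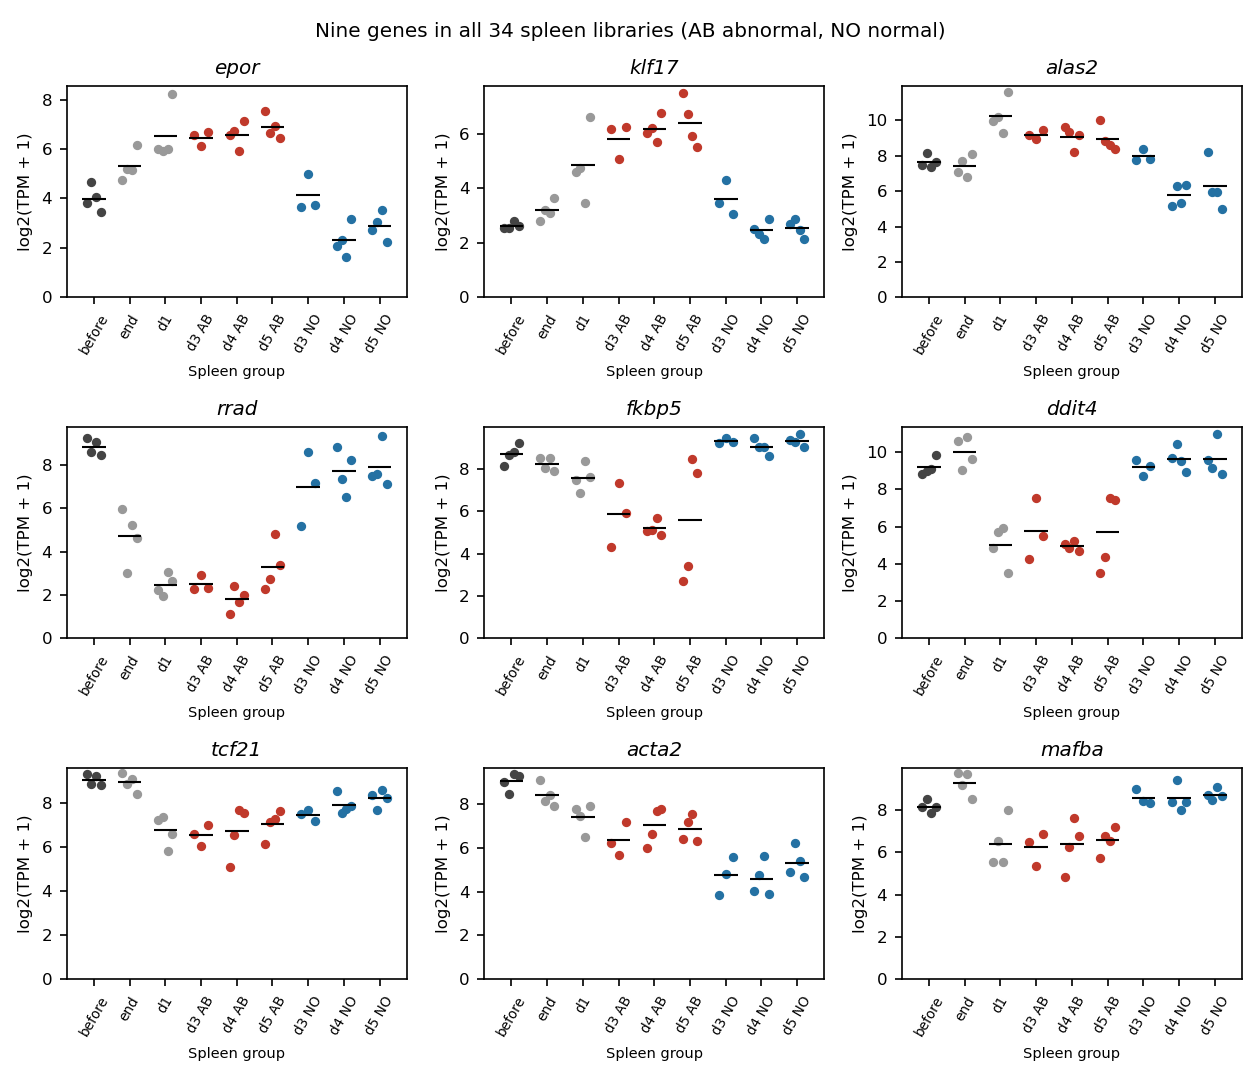
Values of 9 genes as log2(TPM + 1) in all 34 spleen libraries (points) with group means (bars), for fish before transport, at its end, after 1 day (d1) and at days 3 to 5 labelled abnormal (AB, red) or normal (NO, blue). The red points of epor, klf17 and alas2 lie above those before transport, those of rrad and ddit4 far below, and in fkbp5 1 day 5 abnormal fish lies within the earlier range.

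No gene passed a test of change over the 3 days among abnormal fish. Against before transport, 17.2% of genes passed on day 3 (321 rises, 1.78%, and 2775 falls, 15.4%), 21.6% on day 4 (383 rises, 2.13%, and 3508 falls, 19.5%) and 11.1% on day 5 (438 rises, 2.43%, and 1562 falls, 8.68%). All 5154 genes called in the mean of the days had the same direction on each day, and 236 rises and 1396 falls were called on every day. The 3 days share the 4 fish before transport, so these counts are not independent. The 5154 genes were also chosen by the mean of the same 3 days, so their shared direction was largely set by that choice. Limma's moderated F test for a change over the days called 0 genes (0.0%), with 208 at an unadjusted p under 0.05. It called 1 gene without the 10 most abundant genes, 3 with only the compared groups in the fit and 2708 with array weights, whose estimation did not converge. The smallest p values came from tsc22d3 and rgs5b, neither of which passed. tsc22d3 differed from before transport by -2.09, -2.81 and -1.87 on days 3, 4 and 5, and rgs5b, a regulator gene of G protein signalling, by -2.18, -2.82 and -1.12. Single libraries weighed heavily on the counts of a day. Without day 4 abnormal fish 1, day 4 had 1098 calls, without day 3 abnormal fish 2, day 3 had 890, and without day 5 abnormal fish 1, day 5 had 710.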

How the data were processed

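RNA was measured in 34 spleen libraries (68 columns in the deposited table, all mapped to samples). Per the labels' protocols, TRIzol served for RNA extraction, and directional NEBNext libraries followed depletion of ribosomal RNA. Per the submitters' processing notes, fastp 0.23.2 and Salmon 1.10.0 were used. The genome build is not given in the sources used here. The deposited values are read as TPM because they sum to 995833.1 to 998871.1 per spleen library. Each of the 18666 genes in the deposited table reaches 1 TPM in at least 3 libraries. TPM keeps no depth, and with the depth of each library unknown, no counting error is given. Beyond individual collection nothing is said of how replicates arose, so p-values measure the spread between these libraries. No pair of libraries within a group was a copy (48 pairs, at least 18320 genes differing).

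Group means of log2(TPM + 1) over all 34 libraries were fitted with limma 3.58.1 in R 4.3.3 (empirical Bayes with trend, 25 residual and 4.89 prior degrees of freedom) for the 17998 genes that reached 1 TPM in 3 or more spleen libraries. Benjamini-Hochberg adjustment ran over all of them. The fit shares its spread with the 1 day libraries, of which fish 3 and 4 stand apart. Named genes were the 15 largest rises and 15 largest falls with a symbol, at least 5 TPM on the higher side, the same direction on each day and no overlap between groups, from each list with at least 4 tested members up to 4 with the smallest p, 6 and 6 against normal fish, 8 by the F test, and 32 markers, 11 of which had no gene of that name. The 4 most abundant loci and 12 genes chosen after their values were seen are named outside that rule. Members, 60 gene lists and tests were chosen with earlier results of these data known, 5 lists had under 4 tested genes, and 1 list is not reported here. A reference gene table (assembly ASM1485139v1) matched 18657 names and was used for names and neighbours only. Of the genes, 8139 carry locus numbers only and 9 names in date form were not used. Same-numbered fish did not deviate together in every pair (r of -0.11 to 0.39), so numbers were not taken as pairs. Alternatives were pseudocounts of 0.1 and 0.5, other filters and scalings, other fits and leaving out each library. The fits were tested on simulated data. Python 3.11.15 with numpy 2.4.6, pandas 2.3.3 and matplotlib 3.10.9 did the rest.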

Additional observations from a re-analysis of the deposited data

Results flagged for a closer look

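Outliers were sought within groups of 4 spleens, which leaves out the smaller day 3 abnormal group. In all, 26 of 429 group-by-gene or group-by-library values had 1 fish farther from the rest than Dixon's 95% limit. Chance gives about 1 in 20. Day 5 abnormal fish 1 accounted for 10 of them. It had 46.2% of TPM in the 4 most abundant loci (others 20.2% to 24.0%) and 14960 genes at 1 TPM or more (others 16094 to 16326). In the same fish cahz was at 797, sptb at 78.6, clec3ba at 0.37, csf1b at 32.6, ddit3 at 9.33, egr1 at 7.39, rpl3 at 808 and tlx1 at 81.5 TPM. Of these genes cahz and sptb were the highest of the 4 fish of that day and the others the lowest. Among other abnormal fish, day 5 fish 4 had hmox1a at 837 TPM (others at most 443). Day 4 fish 1 had itk at 5.45 TPM (others 18.4 to 22.69), calr at 1.97 TPM (others 7.24 to 8.21) and elovl6 at 1.38 TPM (others 4.48 to 5.16). Day 4 fish 3 had dgat2 at 1.68 TPM (others 0.27 to 0.37), and day 4 fish 4 had mon1a at 2.70 TPM, where the others were listed at 0. Before transport, fish 1 stood apart in srgn (439.8 TPM, others 362 to 368), and mon1a was listed at 0 in it (others 14.6 to 20.9 TPM). Fish 2 stood apart in abat (12.2 TPM, others 18.9 to 19.2), cat (58.3 TPM, others 50.6 to 51.4) and pdk1 (4.26 TPM, others 5.49 to 5.73). Fish 3 stood apart in laptm4b (9.81 TPM), ppp1r15b (77.9 TPM) and ptges (27.3 TPM, others 7.07 to 8.63). Fish 4 stood apart in socs3a (89.4 TPM, others 139 to 141) and sgk1 (22.6 TPM, others 13.6 to 14.3).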

How the results depend on the processing

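No call of a named gene changed direction under any setting run. Of genes that did not pass, hbae5 (-0.85) and LOC119915756 (-0.83) changed sign with quantile normalization, and cdkn1a (0.17 to 0.19) with that, with median-of-ratios rescaling and without the 10 most abundant genes. The lists whose median or balance of rises and falls changed with rescaling are given where they are described. Counts that moved by over 1.5 times were these. With only the compared groups in the fit, 6592 genes passed on day 3, 1560 on day 4, 3773 on day 5 and 3 for change over days. Array weights gave 8837 for the mean of 3 days, 11066 on day 3, 5722 on day 5 and 2708 for change over days, and their estimation did not converge. Requiring a log2 difference past 1 in the test left 135 for the mean, 33, 63 and 40 on days 3, 4 and 5, and 1526 against normal fish. Median-of-ratios rescaling gave 4042 on day 5, quantile normalization 4134, and 1 gene changed over days without the 10 most abundant genes. Chosen after seeing the data, a fit with no 1 day libraries gave 5598, 6382 and 3691 on days 3, 4 and 5 and 7381 for the mean, and leaving out the 2 abnormal fish of fewest genes gave 1277 on day 4 and 1111 on day 5. Causes were not tested. Leaving out 1 library gave 3289 (without fish 4 before transport) to 5828 for the mean, 890 to 2873 on day 3, 1098 to 5296 on day 4, 710 to 2127 on day 5, 10569 to 11376 against normal fish and 0 to 1 for change over days. With the replicate number as a block, 5138 genes passed for the mean and 11329 against normal fish. The numbers are shared in name only, and this block changed no call of a named gene. Of the calls of single genes named, 6 were lost after median-of-ratios rescaling, 8 after quantile normalization, 7 without the 10 most abundant genes, 3 with only the compared groups in the fit and 90 with the added log2 threshold. Depth is unknown in TPM, so low genes carry a counting error that is not shown.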

Other observations

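In the class I antigen presentation list 2 of 16 genes (12.5%, against 25.2% of all genes) fell as deposited, and 2 fell and 1 rose after rescaling. The 2 that fell as deposited were the chaperone genes calr (-1.27, adjusted p = 0.0051) and pdia3 (-1.09, adjusted p = 0.0068), whose groups did not overlap. Of 20 pattern recognition genes 9 (45.0%) fell and 1 rose (median -0.62), and 4 fell and 4 rose after rescaling. The 1 rise as deposited was tlr9, a receptor gene for microbial DNA, at 7.52, 6.49, 6.52 and 7.59 TPM before transport and 7.83 to 27.8 TPM with a median of 14.6 in abnormal fish, without overlap (0.95, adjusted p = 0.015).

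Lipid genes were lower in part. Of 23 genes of lipid synthesis and storage 11 fell and none rose (median -0.63), and 9 fell and 1 rose after rescaling. The fatty acid elongase gene elovl6 stood at 10.6, 7.42, 8.81 and 11.1 TPM before transport and 1.38 to 6.57 TPM with a median of 4.63 in abnormal fish, without overlap (-1.02, adjusted p = 0.0033). In cholesterol synthesis 3 of 21 genes (14.3%, all genes 25.2%) fell and 2 (9.5%, all genes 3.41%) rose as deposited. After rescaling 3 (14.3%, all genes 18.9%) fell and 6 (28.6%, all genes 14.6%) rose. srebf1, a regulator gene of lipid synthesis, fell by 0.95 (adjusted p = 0.0062), a call lost without the 10 most abundant genes (adjusted p = 0.054). Of 33 autophagy genes 4 (12.1%, all genes 25.2%) fell and 1 (3.03%, all genes 3.41%) rose. Their median changed sign from -0.14 to 0.23 after rescaling, which called 12 rises (36.4%, all genes 14.6%) and 2 falls (6.1%, all genes 18.9%). The autophagy kinase gene ulk2 fell by 1.42 (adjusted p = 0.0017), and bcl2b, a survival gene of the apoptosis list, by 1.27 (adjusted p = 0.0035). In that list 5 of 17 (29.4%, all genes 25.2%) fell and 2 rose as deposited. After rescaling 3 (17.65%, all genes 18.9%) fell and 4 rose.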
